A study of Homo sapiens with 8 samples.

Results

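Antisense noncoding RNAs are transcribed from the DNA strand opposite a neighbouring gene and carry that gene's symbol with the ending -AS1, -AS2 or -AS3. The members described here were the long noncoding RNA (lncRNA) genes with such a symbol in GENCODE release 44 whose mean level over the 8 libraries was at least 1 CPM (counts scaled to a library total of 1e6 gene reads). The deposited count files held 60675 gene identifiers and 1800 lncRNA genes of this name form, of which 1132 had a read, and 230 reached the minimum level. All 230 were tested in every comparison. The level rule used the measured values but no contrast between groups. The members just inside the minimum were RHPN1-AS1 (1.007 CPM) and CIRBP-AS1 (1.031 CPM), and the genes just outside were PPP1R12A-AS1 (0.994 CPM) and NARF-AS2 (0.990 CPM).

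An antisense RNA can start at the promoter that also starts the sense gene on the other strand, can begin within the sense gene, or can run into its far end, and it may share exon bases with the sense mRNA. Few of these RNAs have a settled function. Most are spliced and polyadenylated by the same machinery as mRNAs but hold no long reading frame. Indisulam is an aryl sulfonamide that binds RBM39, a splicing factor, to the ubiquitin ligase receptor DCAF15, after which RBM39 is degraded and splicing errors accumulate.

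The study profiled Panc10.05, an established human pancreatic adenocarcinoma line, in 4 groups of 2 libraries each, from polyadenylated RNA and strand-specific library preparation. Parental cells were untreated or exposed to indisulam (2 µM, 18 h). Resistant cells had been raised by culture in rising concentrations of indisulam. They were either kept on 2 µM indisulam without a break or taken off the drug for a drug holiday before RNA was collected, and the second group was labelled untreated. All 4 groups therefore shared the same line of origin, and exposure time differed between the 2 indisulam groups. The resistant cells are a population selected from 1 line, and the study calls the 2 libraries of each group technical replicates, so p-values measure the spread between such libraries. The protocol text attached to the samples names A549, a lung line, whereas sample titles give Panc10.05, which was followed here. All 8 epithelial and pancreatic ductal markers were at 1 CPM or more and summed to 6610 to 12600 CPM, higher in the resistant line, whereas 0 of 6 lung markers were, with sums of 0.0258 to 0.198 CPM. Fibroblast, immune and endothelial markers summed to at most 4.03, 0.445 and 0.341 CPM. In bulk RNA, fewer cells that make an RNA and less of that RNA per cell cannot be told apart.

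The libraries held 65266253 to 108002436 reads assigned to genes, and log2 levels correlated between the 2 libraries of a group at 0.9964 to 0.998. Reads outside annotated genes made up 5.81% and 5.94% in parental untreated cells, 4.51% and 4.58% in parental indisulam cells, 4.43% and 5.11% in resistant untreated cells, and 5.78% and 5.85% in resistant indisulam cells. This share moved with the drug in both lines, in opposite directions, and its part in the results that follow was not tested.

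The level of the members spread over more than 2 orders of magnitude around a median of 3.043 CPM. Levels by library are given below as CPM after scaling by trimmed mean of M values (TMM), in the order of replicates 1 and 2. AFAP1-AS1 (ENSG00000272620, chromosome 4, 7754077 to 7778928, GRCh38, plus strand), an RNA much studied in pancreatic and other carcinomas, was the highest at a mean of 192.9 CPM. Its 2 libraries read 231 and 231 CPM in parental untreated cells, 222 and 220.0 in parental indisulam cells, 170 and 169 in resistant untreated cells, and 153 and 152 in resistant indisulam cells. The parental libraries were all above the resistant ones. Exons of AFAP1 lie opposite 42.16% of the exon bases of AFAP1-AS1, so its level rests on counting by strand. Next in level were OIP5-AS1 (64.9 to 94.0 CPM over the 8 libraries), FGD5-AS1 (65.1 to 104 CPM), VPS9D1-AS1 (73.6 to 90.3 CPM), PAX8-AS1 (34.0 to 63.0 CPM) and OTUD6B-AS1 (27.2 to 48.3 CPM). Of the 230 members, 40 had a mean of 10 CPM or more, 76 lay between 3 and 10 CPM, and 114 lay between 1 and 3 CPM. In 178 members every group mean reached 1 CPM, while 11 stayed under it in both parental groups and 7 in both resistant groups, so such members passed the minimum through the line in which they were high.

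The sense gene named in the symbol was present in the files for 229 members, and was protein-coding for 227 of them. HOXA-AS2 names a gene cluster and had no gene of that name. Antisense RNA and sense gene overlapped head to head, with their 5′ ends inside the overlap, in 110 pairs, and lay head to head without overlap, at most 5000 bases apart, in 17. They overlapped tail to tail in 54 pairs. The antisense RNA lay within the sense gene in 27 pairs and enclosed it in 19. DNAJC9-AS1 lay farther away on the opposite strand, and FAM131B-AS2 lay on the same strand as FAM131B. Exons shared bases with exons on the opposite strand in 199 members, over more than 50% of the member's exon length in 20, and with exons of another gene on the same strand in 30. Only 30 members shared no exon base with any gene.

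Because of this overlap the levels depend on whether reads were counted by strand. The counting setting is not given in the sources used here. Of 794 annotated genes that lie wholly under exons of the opposite strand, 388 had no read in any library and 53 had at least 100 reads. In count units the antisense RNA was usually the smaller partner, with a median of 13.4% of the reads of the pair, yet it held more than 50% in 64 pairs. FGD5-AS1 is an extreme case. It had 5045 to 9471 reads per library, whereas FGD5, a guanine exchange factor of endothelial cells, had 0 reads in all 8 libraries. PAX8-AS1 held 95.7% of the pair's reads beside PAX8, a transcription factor of thyroid and kidney, SLC9A3-AS1 held 96.1% beside the epithelial sodium-proton exchanger SLC9A3, and ACTA2-AS1 held 89.8% beside smooth muscle actin ACTA2. At the other end were UBQLN1-AS1 (0.440%) and EFHD2-AS1 (0.517%), 2 of 17 members with under 1% of the pair's reads. Per kilobase of merged exon, VPS9D1-AS1 stood at 46.9 CPM against 2.79 CPM for VPS9D1, and EFHD2-AS1 at 0.220 CPM against 87.0 CPM for EFHD2.

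Exposure of parental cells to indisulam lowered more antisense RNAs than it raised. Of the 230 members, 120 fell and 30 rose, whereas 80 did not pass the test (edgeR quasi-likelihood test, adjusted p under 0.05 over the 16661 genes tested). Among all genes tested 58.2% were called, 31.6% higher and 26.6% lower, against 65.2%, 13.0% and 52.2% of the members. Many of these genes lay below the members' minimum level. Of all genes at a mean of 1 CPM or more, 69.4% were called, 41.6% higher and 27.8% lower, and of the lncRNA genes at that level, members included, 62.6% were called, 14.5% higher and 48.2% lower. The members' shares were thus close to those of lncRNA genes. The median log2 fold change of the members was -0.26 and that of all genes 0.01. Among the 178 members at 1 CPM or more in every group, 26 rose and 92 fell, with a median of -0.21. A fall of more than 1 log2 unit was called in 25 members (10.9%, against 5.47% of all genes, 2.05% of those at 1 CPM or more and 12.7% of lncRNA genes at that level). A rise of that size was called in ACTA2-AS1 alone (0.435%, against 0.858%, 0.182% and 0.755%). The summed level of the members was 1916 and 1919 CPM in untreated and 1638 and 1612 CPM in treated parental libraries, and without AFAP1-AS1 it was 1686 and 1688 against 1416 and 1392 CPM.

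**Figure D1:**
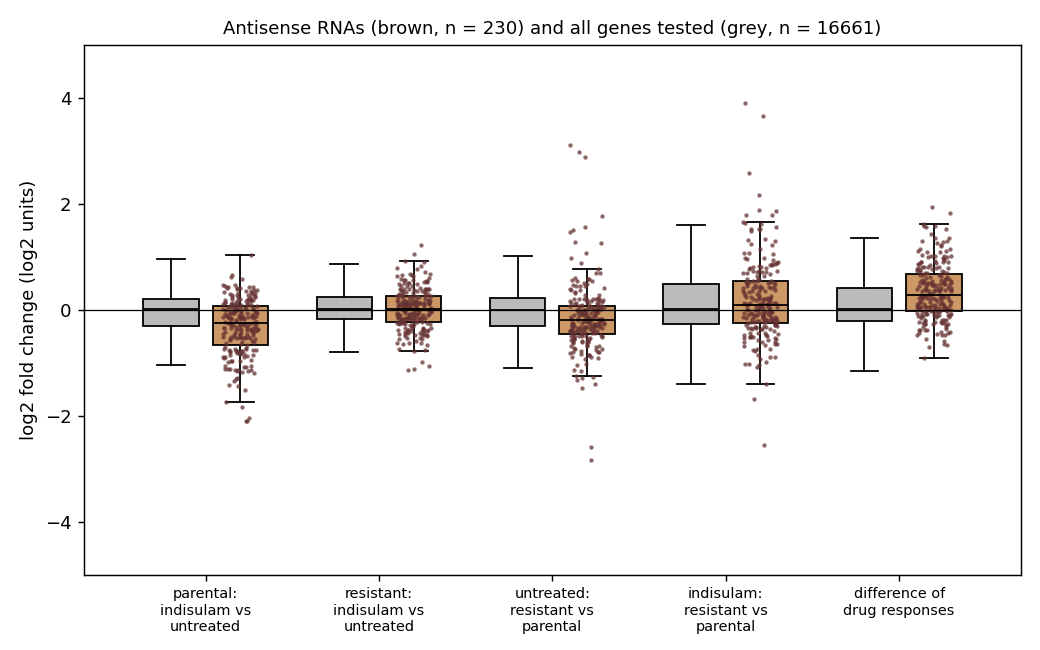
Log2 fold changes in the 5 comparisons for all 16661 genes tested (grey boxes: median, quartiles, whiskers to the farthest value within 1.5 quartile ranges) and for the 230 antisense RNAs (brown boxes, with a point for each member). The members' boxes sit lowest for indisulam in parental cells, with a median of -0.26, and highest for the difference of drug responses, with a median of 0.28.

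The strongest falls were in THBS3-AS1, CCDC18-AS1 and ZNF337-AS1, all of which overlap their sense gene tail to tail and have 11 or more merged exons. THBS3-AS1 (ENSG00000231064, chromosome 1, 155194996 to 155205495, plus strand) runs against THBS3, a thrombospondin of the extracellular matrix. Exons of THBS3 lie opposite 43.79% of its exon bases, and MIR92B on its own strand covers 3.509%, so its value rests on counting by strand. THBS3-AS1 stood at 1.15 and 1.24 CPM in untreated and at 0.280 and 0.271 CPM (21 reads in each library) in treated parental cells. The log2 fold change was -2.11 (SE 0.206, adjusted p 9e-09). Named rises and falls were picked among called members whose libraries did not overlap between groups, so non-overlap is no further support. THBS3 itself fell by 0.63 log2 units (SE 0.102, adjusted p 1.3e-05). The RefSeq promoter of THBS3-AS1 (GRCh38.p14, chr1:155194747-155195046, plus strand, 250 bases before to 50 after the start) is printed because this RNA had the largest fall, with the GGGCGG matches in capitals.
THBS3-AS1: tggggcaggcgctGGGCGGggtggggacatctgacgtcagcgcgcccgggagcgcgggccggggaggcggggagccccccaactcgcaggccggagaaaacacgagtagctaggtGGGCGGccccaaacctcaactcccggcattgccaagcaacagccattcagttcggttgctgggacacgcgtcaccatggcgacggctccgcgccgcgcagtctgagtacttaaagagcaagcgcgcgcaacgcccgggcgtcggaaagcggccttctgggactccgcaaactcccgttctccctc
GGGCGG, searched on both strands, occurred in 61.2% of the 183 members whose promoter was in the table and in 45% of the 35116 promoters of the table. A match is only a run of letters.

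CCDC18-AS1 (ENSG00000223745, chromosome 1, 93262186 to 93346025, minus strand) stood at 10.4 and 10.6 CPM in untreated and at 2.52 and 2.39 CPM in treated parental cells. The treated libraries lay far below the untreated ones, with a log2 change of -2.10 (SE 0.0829, adjusted p 3.4e-15). CCDC18, with 52.8 and 52.0 against 46.3 and 49.0 CPM, had -0.14 (SE 0.0365, adjusted p 0.0027). ZNF337-AS1 (ENSG00000213742, chromosome 20, 25624045 to 25689032, plus strand) went from 5.44 and 5.07 CPM to 1.29 and 1.24 CPM (log2 fold change -2.05, SE 0.148, adjusted p 2.2e-08). Exons of ZNF337, a zinc finger gene, and of a pseudogene lie opposite 57.09% of its exon bases, so its value rests on counting by strand.

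In the 3 largest rises the changes were smaller. ACTA2-AS1 (ENSG00000180139, chromosome 10, 88932390 to 88940820, plus strand) read 1.72 and 1.90 CPM in untreated and 3.48 and 3.86 CPM in treated parental cells, a log2 change of 1.02 (SE 0.108, adjusted p 2.8e-08). The treated libraries were well above the untreated ones, while ACTA2 was at 0.232 to 0.360 CPM in the same 4 libraries and did not pass the test (log2 fold change -0.15, SE 0.285, adjusted p 0.67). Of the exon bases of ACTA2-AS1, 51.46% lie opposite exons of ACTA2, so the level of this RNA rests on counting by strand. SIPA1L1-AS1 rose by 0.64 (SE 0.131, adjusted p 0.0002) beside a rise of 0.24 in SIPA1L1, which encodes a Rap GTPase-activating protein. EXOC3-AS1, whose 5′ end lies 15 bases from that of the exocyst subunit gene EXOC3, rose by 0.62 (SE 0.0985, adjusted p 1.1e-05), and EXOC3 had a log2 change of -0.01 (SE 0.0317, adjusted p 0.78). The widest gaps between partners called in opposite directions were in EFHD2-AS1, with -1.75 against 0.08 for the calcium-binding protein gene EFHD2, and KDM4A-AS1, with -1.15 against 0.41 for the histone demethylase gene KDM4A. EFHD2-AS1 stood at 1.26 and 1.22 CPM in untreated and at 0.374 and 0.362 CPM in treated parental cells, and KDM4A-AS1 at 2.02 and 1.81 against 0.907 and 0.814 CPM.

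Members with more exons had lower fold changes in treated parental cells. Exons overlapping among transcripts were merged for this count. Of the 64 members with 1 or 2 merged exons 14 rose and 20 fell (median log2 fold change -0.03), of the 97 with 3 to 6 merged exons 11 rose and 55 fell (median -0.30), and of the 69 with 7 or more 5 rose and 45 fell (median -0.46). The other lncRNA genes at the same minimum level had medians of -0.09, -0.33 and -0.31 in these classes, and protein-coding genes 0.08, 0.09 and 0.07. By class 21.9%, 11.3% and 7.25% of the members rose and 31.2%, 56.7% and 65.2% fell. Of the other lncRNA genes 18.3%, 12.7% and 10.9% rose and 38.4%, 55.1% and 53.9% fell. Of protein-coding genes 42.2%, 46.4% and 44.3% rose and 17.9%, 21.3% and 27.7% fell. No test was run on the classes. By level the medians were -0.30 between 1 and 3 CPM, -0.19 between 3 and 10 CPM and -0.21 at 10 CPM or more. Among members within the sense gene 0 of 27 rose and 15 fell, beside 13.0% and 52.2% of all members.

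**Figure D2:**
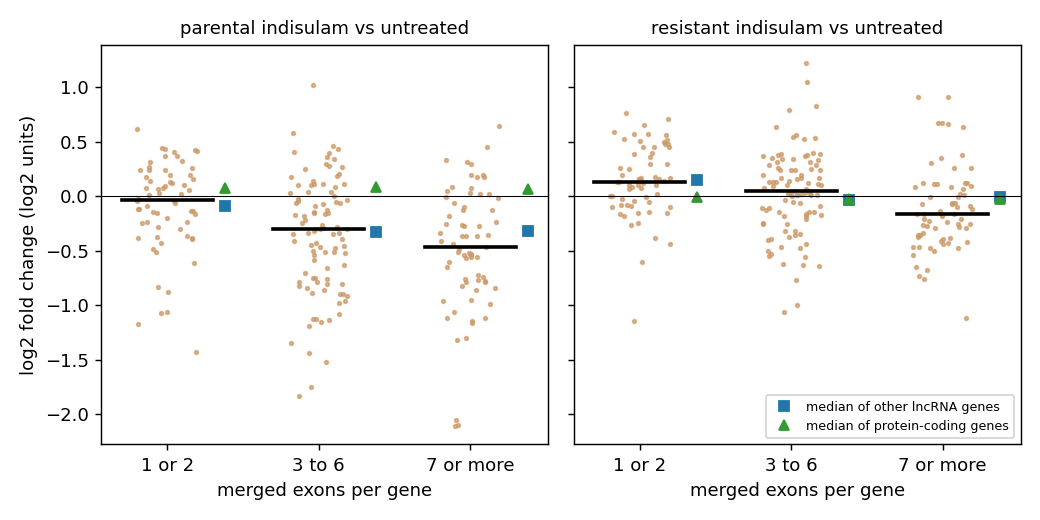
Log2 fold change with indisulam in the parental line (left) and in the resistant line (right) by number of merged exons of the gene, for antisense RNAs (points, with their median as a black line), other lncRNA genes (blue squares, median) and protein-coding genes (green triangles, median). In parental cells the antisense medians go from -0.03 to -0.46 with exon number, whereas those of protein-coding genes stay between 0.07 and 0.09.

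In resistant cells the comparison is between continuous drug and a drug holiday. Rises and falls were nearly balanced. Of the 230 members, 51 were higher and 59 lower on drug and 120 did not pass the test (47.8% called, against 50.7% of all genes tested, 24.9% higher and 25.8% lower). At 1 CPM or more, 60.6% of genes were called, 27.3% higher and 33.3% lower, and 46.3% of lncRNA genes, 25.8% higher and 20.5% lower, against 22.2% and 25.7% of the members. The median log2 fold change was 0.02 for the members and 0.01 for all genes. Calls of more than 1 log2 unit were 2 higher and 3 lower, or 0.870% and 1.30% of the members, against 3.74% and 1.46% of all genes, 0.779% and 0.937% of those at 1 CPM or more and 1.51% and 1.01% of lncRNA genes at that level. The summed level was 1631 and 1695 CPM off drug and 1599 and 1583 CPM on drug. By exon class, 21 of 64 members with 1 or 2 merged exons were higher and 7 lower (32.8% and 10.9%). With 3 to 6 these were 23 and 23 of 97 (23.7% each), and with 7 or more 7 and 29 of 69 (42% lower). The medians were 0.13, 0.05 and -0.17. Of the other lncRNA genes 31.2%, 24.7% and 21.9% were higher and 11.5%, 23.4% and 27.3% lower in these classes. Their medians were 0.15, -0.03 and -0.00. Of protein-coding genes 27.7%, 26.1% and 28.2% were higher and 31.8%, 35.2% and 35.1% lower. With up to 6 merged exons the members' shares were thus close to those of the other lncRNA genes. Whether the members with 7 or more differ from them was not tested.

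SLC9A3-AS1 (ENSG00000225138, chromosome 5, 473236 to 480884, plus strand) had the largest rise on drug. It read 6.33 and 9.04 CPM off drug and 18.9 and 16.9 CPM on drug, and the log2 fold change was 1.22 (SE 0.182, adjusted p 0.0044). The 2 libraries off drug differed widely. SLC9A3 was at 0.401 to 0.486 CPM in these libraries and did not pass the test. ELF3-AS1 (ENSG00000234678, chromosome 1, 201995696 to 202010463, minus strand) overlaps head to head with ELF3, an epithelial transcription factor of the ETS family. ELF3-AS1 read 1.39 and 1.17 CPM off drug and 2.64 and 2.69 CPM on drug, and it rose by 1.05 log2 units (SE 0.132, adjusted p 4.5e-07). ELF3 moved with it, from 4.36 and 4.10 CPM to 9.82 and 11.2 CPM (log2 fold change 1.32, SE 0.084, adjusted p 2.4e-11). Exons of ELF3 and RNPEP lie opposite 23.34% of the exon bases of ELF3-AS1, those of ELF3 opposite 11.92%. Whether reads of ELF3 add to those of ELF3-AS1 was not tested. NINJ2-AS1 rose from 2.55 and 2.63 CPM to 5.25 and 4.59 CPM (log2 fold change 0.91, SE 0.0955, adjusted p 2.7e-08), while NINJ2 had at most 1 read in any library.

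PSMB8-AS1 (ENSG00000204261, chromosome 6, 32844078 to 32846500, plus strand) had the largest fall on drug in resistant cells. It lies in the class II region of the major histocompatibility complex, and overlaps head to head with PSMB8, which encodes an interferon-induced catalytic subunit of the immunoproteasome, and exons of PSMB8 and of the peptide transporter gene TAP1 lie opposite 52.58% of its exon bases. A further 7.181% lie under exons of PSMB9, another interferon-induced immunoproteasome gene, on the same strand, where reads cannot be separated by strand. PSMB8-AS1 read 8.38 and 7.42 CPM off drug and 3.49 and 3.65 CPM on drug, a log2 change of -1.15 (SE 0.0826, adjusted p 5.5e-11). PSMB8 went from 118 and 112 CPM to 73.3 and 69.1 CPM, a log2 change of -0.69 (SE 0.0333, adjusted p 3.6e-14). In parental cells PSMB8-AS1 read 4.92 and 4.83 CPM untreated and 4.24 and 4.04 CPM treated (log2 fold change -0.24, SE 0.0823, adjusted p 0.017), and PSMB8 67.6 and 67.5 against 69.3 and 69.4 CPM (0.04, SE 0.0336, adjusted p 0.34). Both partners were thus highest in the resistant libraries off drug. The stretch of RefSeq sequence around the start of PSMB8-AS1 (GRCh38.p14, chr6:32844026-32844135, plus strand, 60 bases before to 50 after the start) is printed because it holds a pair of GAAA runs separated by 2 bases, the core of an interferon-stimulated response element, shown in capitals.
PSMB8-AS1: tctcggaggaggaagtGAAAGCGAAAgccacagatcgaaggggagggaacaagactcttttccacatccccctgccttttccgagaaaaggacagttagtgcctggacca
This motif, searched with any letters between the runs and on both strands, occurred in 5 of the 183 member promoters in the table (2.73%) and in 3.57% of the 35116 promoters.

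ZNF337-AS1 fell again in resistant cells, from 4.79 and 6.68 CPM to 2.52 and 2.72 CPM (log2 fold change -1.11, SE 0.133, adjusted p 5.6e-06), and KHDC1-AS1 from 2.69 and 3.27 CPM to 1.38 and 1.45 CPM (-1.06, SE 0.133, adjusted p 4.2e-07). FAM222A-AS1 read 2.04 and 1.69 CPM off drug and 1.19 and 1.03 CPM on drug, and its log2 fold change of -0.77 (SE 0.159, adjusted p 0.00028) stood against 0.42 (SE 0.156, adjusted p 0.029) for FAM222A. AGAP2-AS1 had -0.24 (SE 0.0746, adjusted p 0.0093) against 1.34 (SE 0.296, adjusted p 0.00054) for AGAP2, which encodes a GTPase-activating protein. The value of AGAP2-AS1 is uncertain, since 91.87% of its exon bases lie under exons of OS9 on the same strand, and its call was lost under the DESeq2 Wald test (adjusted p 0.062), without resistant indisulam replicate 1 (0.074) and without resistant untreated replicate 2 (0.06), within a range of 0.0069 to 1 over all alternatives.

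Off drug, the resistant line differed from the parental line in 149 members (64.8%, against 60.1% of all genes). Of these, 37 were higher and 112 lower in resistant cells (16.1% and 48.7%, against 30.3% and 29.9% of all genes). At 1 CPM or more, 69.6% of genes were called, 35.5% higher and 34% lower, and 65.9% of lncRNA genes, 17.1% higher and 48.8% lower. The median log2 fold change was -0.20 for members and -0.02 for all genes. Differences above 1 log2 unit were called in 10 members higher and 12 lower in the resistant line (4.35% and 5.22%, against 6.93% and 4.08% of all genes, 4.96% and 1.57% at 1 CPM or more, and 3.02% and 5.53% of lncRNA genes at that level). This comparison and that of indisulam in parental cells share the parental untreated libraries, so their directions are not independent.

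The 3 members furthest above the parental level were KCNJ5-AS1, PRKCQ-AS1 and KHDC1-AS1. KCNJ5-AS1 (ENSG00000174370, chromosome 11, 128899565 to 128906044, minus strand) lies within KCNJ5, which encodes an inwardly rectifying potassium channel subunit, and shares no exon base with any gene. It read 0.512 and 0.515 CPM in parental untreated and 4.70 and 4.20 CPM in resistant untreated cells, a log2 change of 3.12 (SE 0.135, adjusted p 1.1e-15) or 8.67-fold. On drug the values were 0.414 and 0.271 CPM in parental and 5.10 and 5.13 CPM in resistant cells (log2 fold change 3.90, SE 0.154, adjusted p 1.8e-16). All 4 resistant libraries were far above all 4 parental ones, while KCNJ5 had 0 reads in each parental library and 1 read in each resistant library. Its RefSeq promoter (GRCh38.p14, chr11:128905980-128906279, minus strand, 250 bases before to 50 after the start) is shown as that of the member with the largest difference between the lines, and it held none of the 5 motifs searched on both strands.
KCNJ5-AS1: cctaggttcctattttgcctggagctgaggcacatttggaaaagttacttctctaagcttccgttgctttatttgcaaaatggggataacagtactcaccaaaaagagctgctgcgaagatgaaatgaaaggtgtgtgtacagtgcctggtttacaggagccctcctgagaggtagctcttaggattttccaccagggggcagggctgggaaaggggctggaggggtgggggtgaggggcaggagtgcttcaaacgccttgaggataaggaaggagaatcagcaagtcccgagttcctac
Besides the interferon element and the GC box already given, these were the CCAAT box, present in 34.6% of the 35116 promoters and 29% of the 183 member promoters, the TATA box as TATAAA, present in 11.5% and 4.37%, and the ETS site CCGGAAGT, present in 4.14% and 5.46%.

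PRKCQ-AS1 (ENSG00000237943, chromosome 10, 6580419 to 6616921, plus strand) starts 118 bases from PRKCQ, the protein kinase C gene of T-cell signalling, on the opposite strand. It read 0.302 and 0.281 CPM in parental untreated and 2.11 and 2.51 CPM in resistant untreated cells (log2 fold change 2.97, SE 0.174, adjusted p 3.4e-13). PRKCQ had at most 3 reads in any library. KHDC1-AS1 (ENSG00000229852, chromosome 6, 73263212 to 73301789, plus strand) read 0.420 and 0.384 CPM in parental untreated and 2.69 and 3.27 CPM in resistant untreated cells (log2 fold change 2.88, SE 0.157, adjusted p 9e-14), against -0.31 (SE 0.0705, adjusted p 0.00062) for KHDC1. Exons of 2 pseudogenes on its strand cover 19.58% of its exon bases, so part of its reads could belong to them. All 3 were among the members under 1 CPM in both parental groups, and had to differ between the lines to reach the minimum level.

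Lowest against the parental line were PKD1-AS1, MCPH1-AS1 and UBQLN1-AS1. PKD1-AS1 (ENSG00000259933, chromosome 16, 2091436 to 2095433, plus strand) lies within PKD1, the polycystin 1 gene, and 68.6% of its exon bases are opposite other exons. It read 4.01 and 3.93 CPM in parental untreated and 0.540 and 0.570 CPM in resistant untreated cells (log2 fold change -2.84, SE 0.135, adjusted p 6.1e-15), while PKD1 was slightly higher in resistant cells (0.25, SE 0.0623, adjusted p 0.0051). PKD1 has near-identical pseudogene copies, among which reads could be split, so both values are uncertain. MCPH1-AS1 (ENSG00000249898, chromosome 8, 6617310 to 6708224, minus strand) read 25.1 and 26.4 CPM in parental untreated, 25.6 and 26.4 CPM in parental indisulam, 4.16 and 4.45 CPM in resistant untreated and 7.76 and 8.29 CPM in resistant indisulam cells. Every parental library was thus above every resistant one, and the resistant libraries on drug were above those off drug. MCPH1, whose product acts in chromosome condensation and the DNA damage response, differed by -0.43 log2 units off drug (SE 0.0416, adjusted p 4e-09), against -2.58 (SE 0.0589, adjusted p 3.1e-21) for the antisense RNA. UBQLN1-AS1 read 1.39 and 1.60 CPM in parental untreated and 0.567 and 0.493 CPM in resistant untreated cells (-1.49, SE 0.181, adjusted p 1.5e-07), and UBQLN1, the gene of a proteasome shuttle protein, differed by -0.36 (SE 0.0268, adjusted p 3.2e-11). PKD1-AS1 and UBQLN1-AS1 were under 1 CPM in both resistant groups and reached the level minimum through the parental line.

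**Figure D3:**
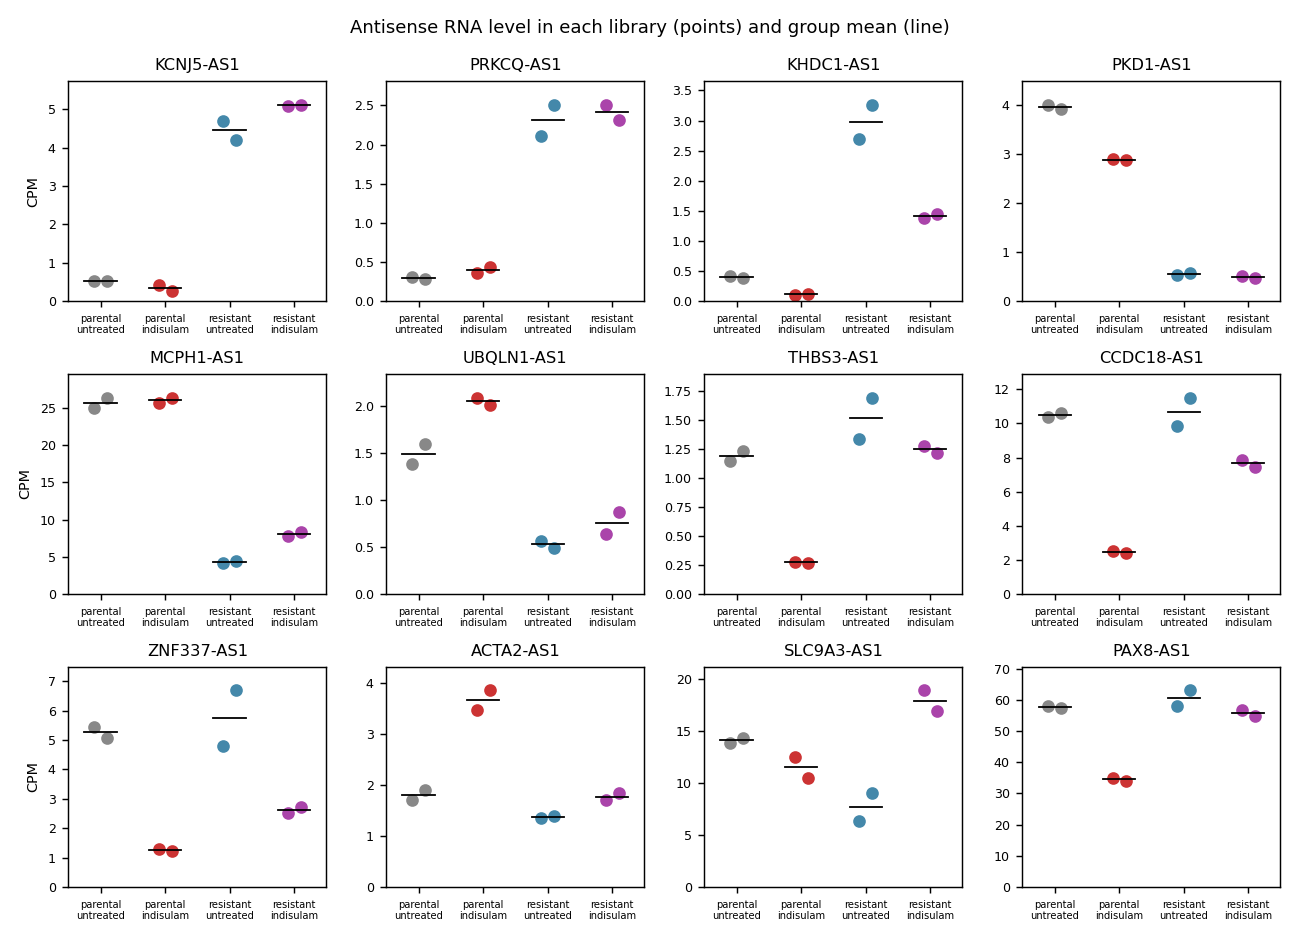
Level of 12 antisense RNAs in each library (CPM, points) with the group mean (line), by group, each panel on its own axis from 0. KCNJ5-AS1, PRKCQ-AS1 and KHDC1-AS1 are high in the 4 resistant libraries, PKD1-AS1, MCPH1-AS1 and UBQLN1-AS1 in the 4 parental ones, and THBS3-AS1, CCDC18-AS1 and ZNF337-AS1 have their lowest values in the 2 parental indisulam libraries.

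On drug, of the 230 members, 96 were higher and 66 lower in resistant cells (70.4% called, against 69.5% of all genes, 34.6% higher and 34.9% lower). At 1 CPM or more, 79.2% of genes were called, 34.2% higher and 45% lower, and 67.5% of lncRNA genes, 40% higher and 27.5% lower, against 41.7% and 28.7% of the members. Among the 178 members at 1 CPM or more in every group, 65 were higher and 56 lower, with a median of 0.02. Differences above 1 log2 unit were called in 25 members higher and 7 lower (10.9% and 3.04%, against 12.4% and 2.32% of all genes, 7.08% and 1.54% at 1 CPM or more, and 10.2% and 3.14% of lncRNA genes at that level). The median log2 fold change was 0.09 for members and 0.00 for all genes. The 2 groups differ in exposure time as well as in line, and these cannot be told apart. Besides the 3 members named off drug, THBS3-AS1 (2.17, SE 0.212, adjusted p 3.1e-09) and CCDC18-AS1 (1.64, SE 0.0893, adjusted p 7e-14) were far higher in resistant than in parental cells on drug, since they were low in the treated parental libraries. The widest gaps between partners called in opposite directions were found in MYLK-AS1 off drug and USP2-AS1 on drug. MYLK-AS1 read 1.93 and 2.01 CPM in parental and 1.27 and 1.60 CPM in resistant untreated cells (-0.46, SE 0.135, adjusted p 0.0048), whereas MYLK, the myosin light chain kinase gene, went from 0.457 and 0.646 CPM to 6.32 and 6.59 CPM (3.55, SE 0.13, adjusted p 4e-17). The call of MYLK-AS1 was lost without resistant untreated replicate 1 (log2 fold change -0.30, adjusted p 0.12) and under the DESeq2 Wald test (adjusted p 0.065), within a range of 0.0018 to 1 over all alternatives. USP2-AS1 read 4.80 and 4.60 CPM in parental and 3.66 and 3.46 CPM in resistant cells on drug (-0.40, SE 0.0871, adjusted p 0.00026), whereas the deubiquitinase gene USP2 was at 0.307 and 0.232 against 2.17 and 1.98 CPM (2.93, SE 0.193, adjusted p 2.4e-12).

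The 2 drug responses were compared by the difference of log2 fold changes, resistant minus parental, in the same edgeR fit. It was positive in 98 members and negative in 20 (51.3% called, against 50.1% of all genes, 22.7% positive and 27.5% negative). At 1 CPM or more, 60.5% of genes were called, 23.2% positive and 37.3% negative, and 52.5% of lncRNA genes, 44.7% positive and 7.8% negative, against 42.6% and 8.70% of the members. A positive difference of more than 1 log2 unit was called in 28 members (12.2%, against 7% of all genes, 2.83% at 1 CPM or more and 13.2% of lncRNA genes at that level), and a negative one in 0 (against 0.774%, 0.638% and 0.126%). The median difference was 0.28 for members and 0.01 for all genes. With scaling by library totals alone the median of all genes moved to 0.13 and that of the members to 0.39. The 2 responses share no library, and by their own calls 47 members were lower on drug in both lines and 12 higher in both. A further 14 were lower in parental and higher in resistant cells, 3 were higher in parental and lower in resistant cells, and 59 were called lower in the parental line and not called in the resistant line. These combinations were not counted over all genes, so nothing particular to the members is read from them. Among the 178 members at 1 CPM or more in every group the difference was positive in 77 and negative in 19, with a median of 0.24.

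THBS3-AS1 and CCDC18-AS1 had large positive differences of 1.83 (SE 0.264, adjusted p 4.6e-06) and 1.62 (SE 0.111, adjusted p 9.3e-11). In resistant cells THBS3-AS1 read 1.34 and 1.69 CPM off and 1.28 and 1.22 CPM on drug (-0.28, SE 0.152, adjusted p 0.13), and CCDC18-AS1 9.84 and 11.5 CPM off and 7.86 and 7.47 CPM on drug (-0.48, SE 0.0702, adjusted p 4.4e-06).

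The largest negative differences were in PSMB8-AS1 (-0.91, SE 0.117, adjusted p 1e-06), NAPA-AS1 (-0.71, SE 0.166, adjusted p 0.00099) and IQCH-AS1 (-0.66, SE 0.112, adjusted p 3.3e-05). NAPA-AS1 read 2.50 and 2.40 CPM untreated and 3.50 and 3.85 CPM treated in parental cells, and 1.90 and 1.89 CPM off and 1.90 and 1.61 CPM on drug in resistant cells. It rose in parental cells, while in resistant cells the log2 fold change was -0.13 (SE 0.129, adjusted p 0.43). NAPA encodes a SNARE disassembly factor, and its difference was -0.22 (SE 0.0507, adjusted p 0.00077). Exons of NAPA lie opposite 36.65% of the exon bases of NAPA-AS1. IQCH-AS1 went from 6.06 and 5.82 to 6.56 and 7.05 CPM in parental cells and from 4.89 and 4.60 to 3.40 and 3.47 CPM in resistant cells, while the difference for IQCH was 0.06 (SE 0.159, adjusted p 0.77).

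**Figure D4:**
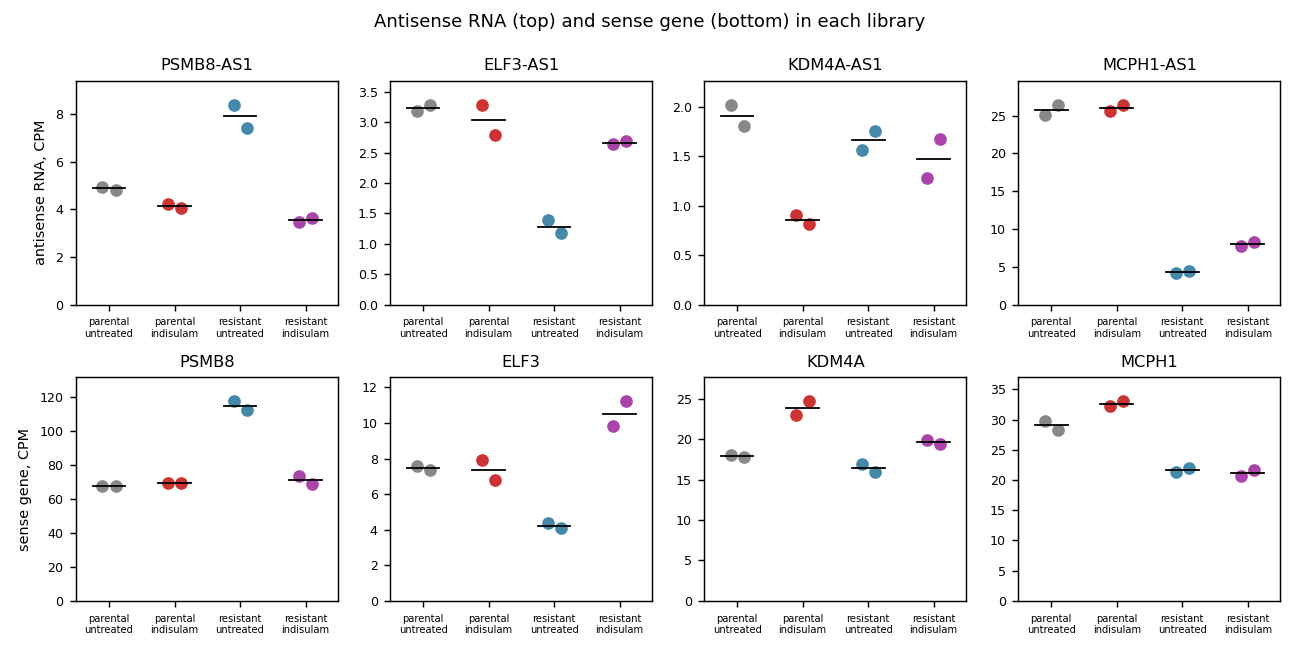
Level (CPM) of 4 antisense RNAs (top) and of the sense gene named in their symbols (bottom) in each library (points) with the group mean (line), each panel on its own axis from 0. PSMB8-AS1 and PSMB8 are both highest in resistant untreated libraries and ELF3-AS1 and ELF3 both lowest there, whereas KDM4A-AS1 is lowest and KDM4A highest in parental indisulam libraries and MCPH1 differs by -0.43 log2 units off drug against -2.58 for MCPH1-AS1.

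Pairs were then read together. The sense gene was itself tested in 197 pairs, and in the other 32 pairs with a sense gene its counts were too low. With indisulam in parental cells 86 sense genes rose and 46 fell, against 26 and 100 of their antisense partners. Of protein-coding genes at 1 CPM or more 44.6% rose and 25.9% fell, and of lncRNA genes 14.5% and 48.2%. Both partners were called in the same direction in 47 pairs and in opposite directions in 34, and in 45 only the antisense RNA was called. In resistant cells these counts were 26, 22 and 45. Pairs called in opposite directions made up 17.3% and 11.2% in the 2 lines, but 9.55% in parental cells without parental untreated replicate 2, 4.52% in resistant cells without resistant indisulam replicate 2, and 10.2% and 5.58% under the DESeq2 Wald test. Between the lines off drug, both partners were called in the same direction in 70 pairs and in opposite directions in 29, and on drug in 75 and 35. For the difference of drug responses the counts were 35 and 31. The numbers of such pairs that the call rates alone would give were not computed. The counts are therefore not read as a link between partners. Across the 197 pairs the Pearson correlation of the log2 fold changes was 0.237 and 0.175 for the drug in parental and resistant cells and 0.306 and 0.325 between the lines off and on drug. These are descriptions across pairs that come from the same libraries and the same scaling and partly share exon bases.

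Head-to-head overlapping pairs (105 tested) had correlations of 0.345, 0.381, 0.470 and 0.432 in the same order of comparisons, and between the lines off drug 38 were called in the same and 14 in opposite directions. In the 42 tail-to-tail pairs the values were 0.181, -0.153, 0.300 and 0.383, with 11 same and 8 opposite off drug. For the 19 antisense RNAs within their sense gene the correlations were 0.0414, -0.317, -0.242 and -0.0804, and 5 pairs were called in the same and 6 in opposite directions off drug. Whether these groups of pairs differ was not tested.

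**Figure D5:**
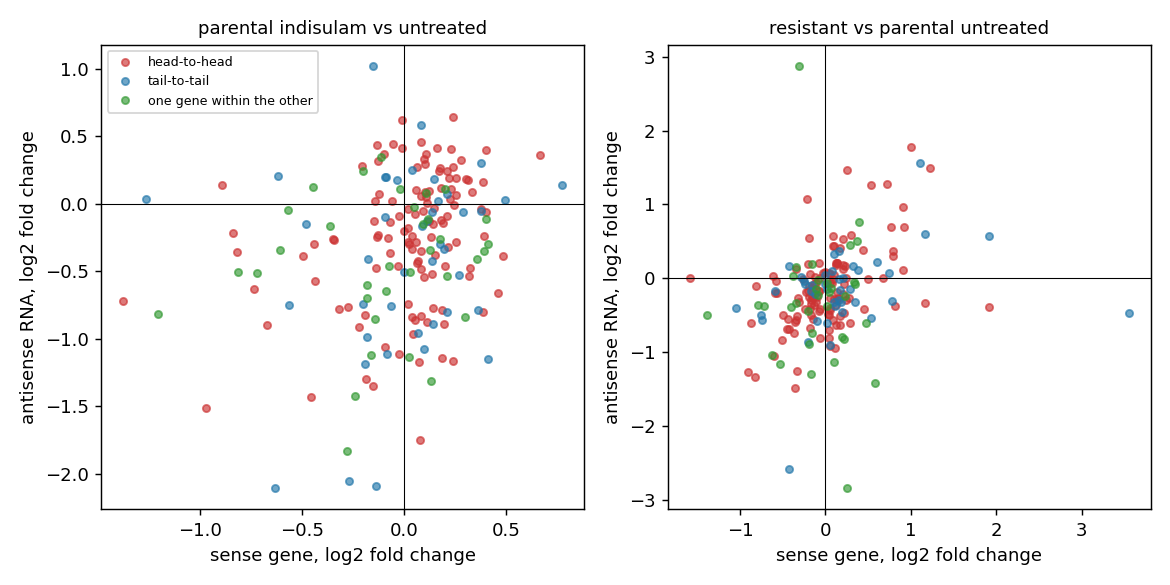
Log2 fold change of the antisense RNA against that of its sense gene for indisulam in parental cells (left) and for resistant against parental untreated cells (right), 1 point for each tested pair, coloured by arrangement. In the left panel most antisense RNAs lie below 0 while sense genes fall on both sides of 0, and in the right panel the head-to-head pairs spread along the rising diagonal (Pearson correlation 0.470, 105 pairs).

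Among the most abundant members, PAX8-AS1 showed the largest response. It read 58.0 and 57.4 CPM in parental untreated, 35.1 and 34.0 CPM in parental indisulam, 58.0 and 63.0 CPM in resistant untreated and 56.8 and 54.8 CPM in resistant indisulam cells. The treated parental libraries stood below the other 6, with log2 fold changes on drug of -0.74 (SE 0.0387, adjusted p 4.2e-13) in parental and -0.12 (SE 0.0378, adjusted p 0.013) in resistant cells. FGD5-AS1 fell on drug in both lines, by 0.37 (SE 0.031, adjusted p 8.1e-10) and 0.44 (SE 0.031, adjusted p 4.2e-11), and its difference between the lines did not pass the test (-0.07, SE 0.0438, adjusted p 0.21). OTUD6B-AS1 rose in both, by 0.36 and 0.24, beside rises of 0.66 and 0.27 in the deubiquitinase gene OTUD6B, from which its 5′ end lies 387 bases away. OIP5-AS1 fell by 0.10 in parental and 0.37 in resistant cells, with a difference of -0.28 (SE 0.0472, adjusted p 3.3e-05). VPS9D1-AS1 fell by 0.16 and 0.15. AFAP1-AS1 was lower in resistant cells by 0.45 log2 units off drug (SE 0.0267, adjusted p 4.6e-13), while AFAP1, which encodes an actin-binding adaptor, was higher by 0.19 (SE 0.028, adjusted p 2e-06).

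Of 30 antisense RNAs listed as much studied in cancer, 21 were members. With indisulam in parental cells 15 of them fell and 1 rose (SBF2-AS1, log2 fold change 0.17), with a median of -0.37, and in resistant cells 7 fell and 4 rose. Among all lncRNA genes at 1 CPM or more, 48.2% fell and 14.5% rose in parental cells, and 20.5% and 25.8% in resistant cells. MCM3AP-AS1 was the most strongly lowered of these. It read 8.38 and 9.38 CPM untreated and 4.06 and 4.15 CPM treated in parental cells (-1.11, SE 0.0739, adjusted p 1.8e-11), and 7.95 and 7.79 CPM off and 4.87 and 4.64 CPM on drug in resistant cells (-0.73, SE 0.0763, adjusted p 2.6e-08). The difference of drug responses was positive in 13 and negative in 3, against 44.7% and 7.8% of lncRNA genes at that level. ITGB2-AS1 had the largest, 1.29 (SE 0.165, adjusted p 9.2e-07), with 3.54 and 3.63 CPM falling to 2.77 and 2.27 CPM in parental cells and 1.90 and 2.17 CPM rising to 3.84 and 3.23 CPM in resistant cells. ZEB1-AS1, opposite the mesenchymal transcription factor gene ZEB1, read 12.3 and 12.3 CPM in parental and 6.37 and 7.78 CPM in resistant untreated cells (-0.80, SE 0.071, adjusted p 3.3e-09), while ZEB1 was at 6.67 and 6.45 against 6.16 and 6.42 CPM (-0.06, SE 0.067, adjusted p 0.44).

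Opposite transcription factor genes lay 14 members, of which 9 fell and 1 rose with indisulam in parental cells (median -0.41) and 2 fell and 1 rose in resistant cells. The difference of responses was positive in 9 and negative in 0. With 44.7% positive and 7.8% negative among lncRNA genes at 1 CPM or more, and 48.2% lower and 14.5% higher in treated parental cells, nothing particular to this list is read from its counts. The largest was in ZNF529-AS1 (1.57, SE 0.214, adjusted p 2.2e-06), with 1.86 and 2.10 CPM untreated and 0.854 and 0.736 CPM treated in parental cells (-1.32, SE 0.148, adjusted p 7.6e-08) against 1.16 and 1.22 CPM off and 1.54 and 1.32 CPM on drug in resistant cells (0.26, SE 0.153, adjusted p 0.17). Of the exon bases of ZNF529-AS1, 46.74% lie opposite exons of ZNF529, so the level of this RNA rests on counting by strand. GATA2-AS1 read 23.0 and 23.1 CPM in parental untreated and 14.3 to 16.7 CPM in the other 6 libraries. A list meant for RNA-binding sense genes was matched by the start of the symbol, so it can miss such genes and take in others. DDX11 matched by the letters DDX alone and is not taken here as the gene of an RNA-binding protein. The list held DDX11-AS1, which fell by 0.39 log2 units in treated parental cells, and PCBP1-AS1, which fell by 0.53. CIRBP-AS1, opposite a cold-inducible RNA-binding protein gene that the prefixes missed, did not pass the test there.

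Members opposite interferon-linked genes were few. The list, matched by the start of the symbol, held 5 members, of which TAPT1-AS1 is named for a gene with no known link to interferon. In parental cells 4 fell and 0 rose with the drug, and in resistant cells 3 fell and 0 rose, TAPT1-AS1 among those that fell in both, while 48.2% and 20.5% of lncRNA genes at 1 CPM or more fell. IRF1-AS1 (chromosome 5, 132410636 to 132488702, plus strand), which runs tail to tail with the interferon regulatory factor gene IRF1, read 0.795 and 0.795 CPM in parental untreated, 0.440 and 0.362 CPM in parental indisulam, 2.17 and 2.53 CPM in resistant untreated and 1.42 and 1.35 CPM in resistant indisulam cells. Of the exon bases of IRF1-AS1, 28.83% lie opposite exons of IRF1 and 8.604% under exons of an unnamed gene on its strand. Its values therefore rest in part on counting by strand. It was lower on drug in both lines (-0.99, SE 0.199, adjusted p 0.00018, and -0.76, SE 0.136, adjusted p 5.5e-05) and higher in resistant than in parental cells off drug (1.56, SE 0.141, adjusted p 1.1e-09), and as it was under 1 CPM in both parental groups it reached the level minimum through the resistant line. IRF1 had the same order of group levels, with 26.9 to 30.8 CPM in parental and 49.3 to 67.1 CPM in resistant libraries. Whether reads of IRF1 add to those of IRF1-AS1 was not tested. TRIM52-AS1 fell by 0.63 in parental cells beside a fall of 0.73 in TRIM52, and TRIM31-AS1 was lower in resistant cells off drug by 0.86 (SE 0.159, adjusted p 5.5e-05). Of the exon bases of TRIM52-AS1, 21.98% lie under exons of another gene on its strand, so part of its reads could belong to that gene. TRIM52 and TRIM31 entered the list by the letters TRIM alone, and their link to interferon was not checked.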

How the data were processed

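RNA-seq of Panc10.05 was analysed in 8 libraries, 4 groups of 2, grouped by sample titles. The authors deposited whole-number read counts per Ensembl gene, with no normalization. The submitters' processing notes name HISAT2 2.2.1, Picard and HTSeq and the build GRCh38, with no role for the last 2, and the files list reads marked as duplicates apart, outside the gene counts. The annotation release and strand setting of the counting are not given in the sources used here. Summary lines naming no gene (9 per file, with reads outside genes at 4.43% to 5.94% and ambiguous reads at 5.61% to 7.33%) were left out of library totals and tests.

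Counts were fitted with edgeR 4.0.16 (R 4.3.3; filterByExpr, TMM, robust glmQLFit, glmQLFTest, 1 mean per group over all 8 libraries, 4 residual degrees of freedom). P-values were adjusted by Benjamini and Hochberg over the 16661 genes tested, and a gene was called at an adjusted p under 0.05. CPM by library used TMM-scaled totals, and the level rule plain totals. The script was tested on simulated data. Depth was 65266253 to 108002436 gene reads, so a member at the minimum level had on average over 60 reads per library. Alternatives were DESeq2 1.42.0, other scalings and filters, a stricter threshold, glmTreat, thinning, a replicate block and leaving out each library.

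Members, coordinates and exon overlaps came from GENCODE 44, which matched 60419 of 60675 identifiers, and promoters from RefSeq (GRCh38.p14). Members and lists were chosen with earlier results of these data known. Named were the 3 largest rises and 3 largest falls per comparison among called members whose libraries did not overlap, the 6 highest in level, per comparison the 2 pairs called in opposite directions with the widest gap, the genes nearest the level minimum, their sense genes, and examples from the lists. A named member that is withheld is not reported here.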

Additional observations from a re-analysis of the deposited data

Results flagged for a closer look

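The 19 named members below were singled out because their response to indisulam differed between the resistant and the parental line by the test of the difference itself (edgeR quasi-likelihood, adjusted p under 0.05). Values are resistant minus parental responses on the log2 scale. The 2 drug groups differ in exposure time, so a difference between lines and a difference between 18 h and continuous exposure cannot be told apart.

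The response was higher in resistant cells for THBS3-AS1 (1.83), CCDC18-AS1 (1.62), SLC9A3-AS1 (1.52), EFHD2-AS1 (1.35), ELF3-AS1 (1.14), KDM4A-AS1 (1.01), ZNF337-AS1 (0.94), MYLK-AS1 (0.91), MCPH1-AS1 (0.89), KCNJ5-AS1 (0.78), PAX8-AS1 (0.63) and NINJ2-AS1 (0.60). In MCPH1-AS1 and ELF3-AS1 the parental response did not pass the test and the resistant one was a rise.

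The response was lower in resistant cells for PSMB8-AS1 (-0.91), NAPA-AS1 (-0.71), IQCH-AS1 (-0.66), ACTA2-AS1 (-0.64), SIPA1L1-AS1 (-0.55), AGAP2-AS1 (-0.36) and OIP5-AS1 (-0.28). IQCH-AS1 rose on drug in parental cells and fell in resistant cells. The share of reads outside genes fell on drug in parental cells (5.81% and 5.94% to 4.51% and 4.58%) and was higher on drug in resistant cells (4.43% and 5.11% against 5.78% and 5.85%), and its part in these differences was not tested.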

How the results depend on the processing

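Summary values (the percent of members called, higher and lower, the percent of pairs called in the same and in opposite directions, and median log2 fold changes) moved beyond 1.5 times, or beyond the spread between libraries for medians, in 93 of 564 comparisons with alternatives. Named members kept direction and call in 626 of 642 and lost the call in 16, and 0 reversed. Comparisons are given in the order of drug in parental cells, drug in resistant cells, resistant against parental off drug, on drug, and difference of responses.

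Against a minimum of 0.5 log2 units (glmTreat) members called fell to 19.1%, 4.78%, 17.4%, 25.7% and 14.8%, higher 0.435%, 2.17%, 6.52%, 18.7% and 14.3%, lower 18.7%, 2.61%, 10.9%, 6.96% and 0.435%, pairs in the same direction 1.02%, 1.52%, 5.08%, 7.11% and 1.52%, and in opposite directions 0.0% in all 5. All genes called were then 6.25%, 5.28%, 15.5%, 21.1% and 5.45%, higher 0.84%, 3.15%, 9.35%, 14.8% and 4.48%, and lower 5.41%, 2.13%, 6.15%, 6.25% and 0.972%. Shares of lncRNA genes were not computed for this setting. The calls of SIPA1L1-AS1, EXOC3-AS1, SLC9A3-AS1, AGAP2-AS1, FAM222A-AS1, MYLK-AS1, USP2-AS1, NAPA-AS1 and IQCH-AS1 were lost under it. The DESeq2 Wald test gave 8.26% higher for the drug in parental cells, pairs in the same direction at 15.7%, 8.12%, 22.8% (off drug) and 11.2% (difference), and in opposite directions at 10.2%, 5.58%, 8.63% and 9.14%. At an adjusted p under 0.01 opposite pairs were 10.7%, 5.08%, 9.64% (off drug) and 7.11% (difference), and same-direction pairs in resistant cells 6.60%.

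Scaling by library totals alone moved the medians to -0.327, 0.069, -0.224, 0.179 and 0.394, the negative differences to 5.65% and their opposite pairs to 8.63%. In resistant cells it turned 51 higher and 59 lower into 64 and 53. AGAP2-AS1 lost its call in the difference (-0.249, adjusted p 0.066, range 0.0056 to 1 over all alternatives). With no filter the medians were -0.291 (drug in parental cells), 0.117 (on drug) and 0.302 (difference), and with a mean of at least 1 CPM -0.317, 0.170 and 0.363, with opposite pairs in the difference at 9.87% and 10.4%. Fitting only the groups compared gave -0.281 and 0.103 (on drug). The 30 members without exon overlap had medians of -0.351, 0.100, -0.061, 0.157 and 0.339, with 20.0% higher in treated parental cells, 30.0% called, 13.3% higher and 16.7% lower in resistant cells, 30.0% higher off drug, and opposite pairs at 4.55% (resistant cells), 9.09% (on drug) and 9.09% (difference).

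Leaving out each library gave medians of -0.284 to -0.248, -0.01 to 0.063, -0.211 to -0.177, 0.076 to 0.116 and 0.27 to 0.343, and 8.26% to 12.6% higher in treated parental cells, the lowest without parental indisulam replicate 1. Opposite pairs ranged over 9.55% to 16.2%, 4.52% to 11.6%, 9.05% to 14.6% (off drug) and 8.04% to 12.6% (difference), and same-direction pairs in resistant cells over 8.04% to 13.6%. The lowest values came without parental untreated replicate 2, resistant indisulam replicate 2, parental untreated replicate 1, parental untreated replicate 2 and resistant indisulam replicate 2. Opposite pairs also moved by over 1.5 times without parental untreated replicate 1 (11.1% for the drug in parental cells, and within the stated range for the difference), resistant untreated replicate 1 (9.6% off drug), parental indisulam replicate 2 (9.05% for the difference) and resistant indisulam replicates 1 and 2 (9.55% each for the difference).

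Same-numbered libraries of different groups did not deviate together (correlation -0.058 to 0.0272 over 6 pairs of groups), so no effect shared by replicate number was seen. The titles do not say whether such libraries were prepared together, and this check cannot exclude it. With the replicate number as a block 63.5%, 47.4% and 63.0% of members were called in the first 3 comparisons, and the block changed no call of a named member.

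With 2 libraries per group a difference within the spread of such libraries cannot be detected. Sense genes with few reads, such as KCNJ5 and PRKCQ, cannot be tested at this depth.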
